A study of Mus musculus with 2 samples.

Results

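Adhesion receptors hold a myoblast to its neighbours and to the matrix around it. The 10 receptor genes described here were chosen by symbol, out of 55414 genes in the count tables: the cadherins Cdh15, Cdh2 and Cdh11, the immunoglobulin-domain receptors Ncam1 and Vcam1, the integrin subunits Itga5, Itga7, Itgav and Itgb1, and the EGF-repeat receptor Megf10. They were measured in nuclei of C2C12 cells, an established mouse myoblast line that proliferates and, at high density or low serum, fuses into myotubes. Single nuclei were isolated from cultures near confluence, fixed in methanol and sequenced with the Chromium v3 droplet method, in which each captured RNA molecule carries a unique molecular identifier (UMI).

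The series compared 2 libraries. For the in situ polyadenylated library, yeast poly(A) polymerase acted on the fixed nuclei at 37 °C during 25 min. The enzyme extends RNA 3′ ends with adenines, and RNA that has no tail of its own then becomes open to capture by oligo(dT). In the standard library the reaction was left out, and with it the warm incubation, and those nuclei were counted directly after the wash in reaction buffer. The treated nuclei were also washed, spun down and resuspended once more afterwards, so the enzyme, the incubation and the further wash cannot be told apart. The enzyme mix for the nuclei held the RNase inhibitor SUPERase-In. For tissue sections, the paper reports that this inhibitor failed to keep longer transcripts intact in the reaction. RNA breakdown in the nuclei was not tested here. Cell line, fixation and droplet chemistry were common to both libraries, each group had 1 library, and no replicate of the culture or of the treatment exists in the samples used here. No test between the groups could therefore be made. Values are given with 95% intervals that cover counting error only.

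Nuclei were barcodes with over 750 UMIs in the kallisto matrix, in which the reads were assigned to transcripts. That gave 1335 in situ polyadenylated and 1123 standard nuclei with 1974289 and 1382804 UMIs, and no nucleus barcode was found in both libraries. The same nuclei were also read in the STAR matrix, in which reads were placed on the genome. It held 1328 and 1123 of them, with 11545281 and 6237950 UMIs. Protein-coding genes held 29.1% of kallisto UMIs after in situ polyadenylation and 55.5% in the standard nuclei, and a lower share for all coding genes lowers each of them. For this reason each gene is also compared with the median over protein-coding genes that reached 50 UMIs in both libraries. Values are given as CPM, counts scaled to a common library total. The median log2 ratio of CPM for in situ polyadenylated over standard nuclei was -1.19 over 2117 genes in kallisto and -1.92 over 7752 genes in STAR, and a gene's log2 ratio minus this median is called its relative log2 ratio.

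Classical cadherins bind their like on the next cell and hold the actin skeleton through catenins. Cdh15 (M-cadherin) is the cadherin most typical of the muscle lineage, Cdh2 (N-cadherin) is shared with many mesenchymal and neural cells, and Cdh11 is a cadherin of mesenchymal cells. Integrins are pairs of 1 alpha and 1 beta subunit that bind the matrix: Itgb1 pairs with Itga5 to bind fibronectin and with Itga7 to bind laminin, and Itgav binds ligands with an RGD motif. Ncam1 and Vcam1 are surface receptors of the immunoglobulin superfamily, and Megf10 is a receptor of satellite cells and myoblasts that is known for keeping them proliferating.

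The myoblast identity of the nuclei was checked with 8 marker genes, which held 1333 kallisto UMIs in the in situ polyadenylated and 2037 in the standard nuclei. Most of these UMIs were of Vim, an intermediate filament gene of many mesenchymal cells (922 and 1314), and Des, the muscle intermediate filament gene (360 and 636). Of the myogenic transcription factor genes, Myod1 had 15 and 13 UMIs, Myf5 had 6 and 9 and Pax7 had 5 and 4. Myf6 had 0 in both libraries. The other markers, Sdc4 and Chrna1, had 17 and 43 and 8 and 18 UMIs. In STAR the 8 markers held 3856 and 5893 UMIs, again most of them of Vim (2554 and 3561). A list of 8 genes of differentiating myocytes held 150 and 134 kallisto UMIs, most of them of Myh3, the embryonic myosin heavy chain gene (99 and 77). By CPM this list was lower after in situ polyadenylation, at 76.0 against 96.9 in kallisto and 35.4 against 64.8 in STAR. Relative to the median coding gene, 2 of 2 genes with 20 UMIs were past 2-fold upward in kallisto (Myh3 at 1.04 and Tnnt3 at 1.07). In STAR 3 of 7 were (median 0.87). Over all coding genes tested, 2.76% in kallisto and 13.1% in STAR were past 2-fold upward. With fewer kallisto UMIs, Mylpf stood at -1.64 (3 and 15 UMIs) and Acta1 at 0.16 (7 and 10 UMIs). Lists of 4 endothelial, 4 leukocyte, 4 epithelial and 4 neural markers held between 1 and 36 kallisto UMIs per list and library. The highest was the endothelial list in the standard nuclei, where Pecam1 had 35 of the 36 UMIs and Cdh5 and Tek had 0. In STAR these lists held between 15 and 215 UMIs, the most in the neural list (215 and 156), whose genes Rbfox3 and Snap25 had 0 kallisto UMIs. Their part in the receptor values was not tested.

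The genes differ widely in length, and they differ in how much of their sequence is intron. Vcam1 (19.8 kb), Cdh15 (21.3 kb), Itga5 (22.6 kb) and Itga7 (24.5 kb) are short, and Itgb1 (48.7 kb) and Itgav (82.9 kb) are intermediate. Cdh11 (154 kb), Megf10 (165 kb), Cdh2 (242 kb) and Ncam1 (297 kb) are long. The intron share of the gene body ran from 54.5% in Vcam1 to 97.0% in Ncam1. Introns can hold runs of adenines to which an oligo(dT) primer is able to anneal, so that unspliced RNA can be captured from within. Runs of at least 12 adenines on the RNA strand were counted in the introns. Ncam1 had 11 of them, Cdh11 had 6, Cdh2 and Megf10 had 5 each, Itga5 and Itgav had 4 each, Itgb1 had 2, Itga7 and Vcam1 had 1 each, and Cdh15 had 0. Of 3630 protein-coding genes with at least 50 kallisto UMIs in the standard nuclei, 70.0% had at least 1 such run. Together these genes had 6.22 runs per 100 kb of intron. On that scale Ncam1 had 3.82, Cdh11 4.21, Cdh2 2.15, Megf10 3.24, Itgb1 4.68 and Itgav 5.67. Itga5 had 23.2, Vcam1 9.29, Itga7 6.15 and Cdh15 0.

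The longest intronic run of 4 of the genes is shown to make this feature visible, read from GRCm39 on the strand of the gene, with the run in capitals and 20 bases on either side. The positions are chr9:49470462-49470546 (minus strand) for Ncam1, chr8:103473781-103473857 (minus strand) for Cdh11, chr15:103261113-103261184 (minus strand) for Itga5 and chr2:83572219-83572284 (plus strand) for Itgav. The runs are 45, 37, 32 and 26 adenines long.
Ncam1: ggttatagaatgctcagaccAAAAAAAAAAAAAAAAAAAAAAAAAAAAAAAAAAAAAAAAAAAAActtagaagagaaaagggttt
Cdh11: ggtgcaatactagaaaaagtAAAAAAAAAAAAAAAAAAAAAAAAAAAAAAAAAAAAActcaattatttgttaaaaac
Itga5: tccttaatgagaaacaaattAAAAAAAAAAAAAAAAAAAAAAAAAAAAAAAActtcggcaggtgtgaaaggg
Itgav: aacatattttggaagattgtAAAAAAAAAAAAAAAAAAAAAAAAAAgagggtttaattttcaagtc

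Together the 10 genes held 684 kallisto UMIs after in situ polyadenylation and 1117 in the standard nuclei, or 346 and 808 CPM. In STAR they held 4168 and 10999 UMIs, or 361 and 1763 CPM. Each of the 10 genes had a lower CPM in the in situ polyadenylated nuclei in both matrices, with intervals below 0 throughout. The median coding gene was itself lower by CPM, at log2 -1.19 in kallisto and -1.92 in STAR. The share of all coding genes with such intervals was not computed. Set against the median protein-coding gene, the summed receptors were at the median in kallisto, with a relative log2 ratio of -0.03 (-0.17 to 0.11), and below it in STAR, with -0.37 (-0.42 to -0.31). On a scale of CPM over protein-coding UMIs alone, leaving out 3 genes that held over 1% of UMIs in a library (Peak1, Zfp791 and Lars2), the sums were 1434 and 1459 in kallisto and 1308 and 2365 in STAR. The share of coding UMIs was thus within counting error in kallisto (log2 ratio -0.02, -0.16 to 0.11) and lower in STAR (-0.86, -0.91 to -0.80). The median coding gene was not placed on this scale. The -0.86, unlike the -0.37, therefore also holds any shift that the median coding gene shares. This scale was chosen after the values were seen, and it is called coding CPM from here on. Fewer cells with a receptor and less receptor RNA per nucleus cannot be told apart in such sums.

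**Figure D1:**
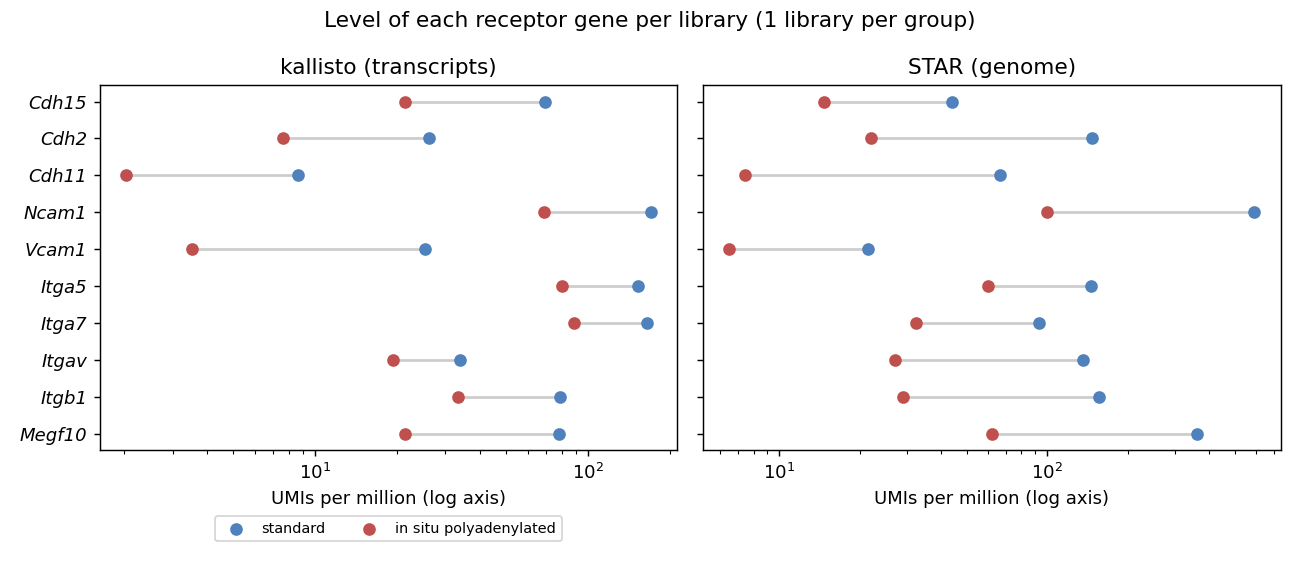
CPM (log axis) of each receptor gene in the standard (blue) and in situ polyadenylated (red) library, in the kallisto matrix on the left and the STAR matrix on the right, with a grey line joining the 2 libraries. All 10 genes lie lower in the in situ polyadenylated library in both panels, and Ncam1 is the highest gene of the STAR panel at 100 and 592 CPM.

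A gene was counted as past 2-fold when its relative log2 ratio was at least 1 from 0, among protein-coding genes with at least 20 UMIs over both libraries. In kallisto 9 of the 10 receptors had that many UMIs, the exception being Cdh11, and Vcam1 was past 2-fold downward while none was upward. Over the 8016 protein-coding genes tested, 10.8% were past 2-fold downward and 2.76% upward, and 1 of 9 is near that background. In STAR all 10 had enough UMIs, and Cdh11 was past 2-fold downward while none was upward. Over the 12382 genes tested there, 2.21% were past 2-fold downward and 13.1% upward. The median relative log2 ratio was -0.11 over the 9 receptors in kallisto, against -0.21 over all genes tested, and -0.46 over the 10 receptors in STAR, against 0.06.

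Cdh15 lies on chromosome 8 (123574705 to 123596048, plus strand, GRCm39), with 14 merged exon blocks. It had 42 kallisto UMIs in the in situ polyadenylated and 96 in the standard nuclei, or 21.3 and 69.4 CPM. Its relative log2 ratio in kallisto was -0.51 (-1.07 to 0.02). In STAR, where it had 170 and 276 UMIs, the relative log2 ratio was 0.33 (0.05 to 0.62). The M-cadherin gene was therefore lower than the median coding gene by its transcript count and higher by its genome count, and the transcript interval reached 0.

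Cdh2, on the minus strand of chromosome 18 (16700793 to 16942381), had 15 and 36 kallisto UMIs, with a relative log2 ratio of -0.58 (-1.56 to 0.32). Its STAR counts were 253 and 919, or 21.9 and 147 CPM, with a relative log2 ratio of -0.83 (-1.03 to -0.62). N-cadherin was below the median coding gene in STAR by more than counting error, and in kallisto the depth did not show a difference.

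By kallisto count, though not by STAR count, Cdh11, on the minus strand of chromosome 8 (103358726 to 103512687), was the rarest of the 10. It had 4 and 12 kallisto UMIs, close to the floor of 3 UMIs, which corresponds to 1.52 and 2.17 CPM. Its STAR counts were 86 and 415, or 7.45 and 66.5 CPM, a ratio of 8.93-fold in favour of the standard nuclei. The relative log2 ratio in STAR was -1.24 (-1.59 to -0.90), the lowest of the 10. In kallisto its interval ran from -3.00 to 0.82, so nothing can be read from that matrix.

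To see how far these low genome counts stood above stray reads, each receptor was set beside silent protein-coding genes of its own length class. Silent genes were the 7755 with 0 kallisto UMIs in the nuclei of both libraries. For Cdh11, the class median of STAR CPM per kb of gene body was 0.0101 in the in situ polyadenylated nuclei, which is 20.9% of the 0.0484 of Cdh11 itself. In the standard nuclei it was 0.0138, or 3.19% of the 0.432 of Cdh11. For Cdh2 the class median came to 10.2% and 2.23% of the gene's own level. In the other 8 genes it came to between 0.157% and 2.75%. With the class medians subtracted from every gene, the relative log2 ratio was -1.49 for Cdh11 and -0.92 for Cdh2, lower than without. After in situ polyadenylation 11 of 347 silent genes lay above Cdh11 and 8 of 268 lay above Cdh2, and between 1 and 19 silent genes of the class lay above each of the other receptors except Ncam1, which none exceeded. In the standard nuclei 1 silent gene lay above Vcam1 and none above the other 9.

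Ncam1, on the minus strand of chromosome 9 (49413436 to 49710357), encodes the neural cell adhesion molecule, which is also found on myoblasts and on muscle without nerve supply. It had 136 and 235 kallisto UMIs, or 68.9 and 170 CPM, with a relative log2 ratio of -0.11 (-0.43 to 0.20). Its STAR counts were the highest of the 10, 1156 and 3695 UMIs, or 100 and 592 CPM, and the relative log2 ratio was -0.64 (-0.74 to -0.55). The transcript count of Ncam1 thus followed the median coding gene within counting error, and its genome count lay below it.

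Vcam1, on the minus strand of chromosome 3 (115903598 to 115923355), is the partner of the integrin with alpha 4 and beta 1 chains. It had 7 kallisto UMIs after in situ polyadenylation and 35 in the standard nuclei, or 3.55 and 25.3 CPM. The relative log2 ratio was -1.64 (-3.06 to -0.45), and in the class of 512 genes with bodies from 10 to 25 kb and that reached 50 UMIs in both libraries no gene was lower. Vcam1 itself is below that minimum, so its counting error is wider than that of the class. The STAR matrix gave another picture, with 75 and 134 UMIs and a relative log2 ratio of 0.20 (-0.23 to 0.61). Vcam1 was past 2-fold in one matrix and near the median in the other. The kallisto value rests on 7 UMIs.

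Itga5, the fibronectin receptor subunit, lies on the minus strand of chromosome 15 (103252713 to 103275270). It had 159 and 211 kallisto UMIs, or 80.5 and 153 CPM, with a relative log2 ratio of 0.27 (-0.04 to 0.57). In STAR it had 693 and 910 UMIs, and its relative log2 ratio of 0.64 (0.50 to 0.78) was the highest of the 10. It stood above the median coding gene in both matrices, beyond counting error in STAR.

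Itga7, the laminin receptor subunit of muscle, lies on the plus strand of chromosome 10 (128769621 to 128794169). Its kallisto UMIs numbered 175 and 228, the most of any receptor after in situ polyadenylation, and the relative log2 ratio was 0.30, with an upper bound of 0.59 and a lower bound of 0.0039. In STAR the counts were 373 and 579 and the relative log2 ratio was 0.40 (0.21 to 0.59). Both matrices placed Itga7 above the median coding gene.

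Itgav, on the plus strand of chromosome 2 (83554403 to 83637260), had 38 and 47 kallisto UMIs and a relative log2 ratio of 0.37 (-0.28 to 1.02). Its STAR counts of 312 and 845 gave -0.40 (-0.60 to -0.21). With nuclei over 1500 UMIs the kallisto value turned to -0.27, so it has no settled direction. The antisense lncRNA gene Gm13684, which overlaps Itgav, had 5 and 16 kallisto UMIs and 5 and 4 STAR UMIs. The kallisto counting used strand, and the sources used here do not give the strand setting of STAR, so antisense reads could not be separated from those of Itgav in that matrix. Among the annotated genes that overlap the other receptors and are in the tables, none had more than 9 UMIs in a library in either matrix.

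Itgb1, the common beta chain, lies on the plus strand of chromosome 8 (129411876 to 129460618). It had 66 and 109 kallisto UMIs, with a relative log2 ratio of -0.05 (-0.51 to 0.41), and 333 and 969 STAR UMIs, with -0.51 (-0.69 to -0.33). By transcript count the beta chain was within counting error of the median gene. By genome count it was below the median gene, while its alpha partners Itga5 and Itga7 were above it.

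Megf10, on the plus strand of chromosome 18 (57266162 to 57430693), had 42 and 108 kallisto UMIs and a relative log2 ratio of -0.68 (-1.23 to -0.16). Its STAR counts were 717 and 2257, second to Ncam1, and the relative log2 ratio was -0.62 (-0.74 to -0.50). Megf10 was the 1 receptor whose intervals lay below 0 in both matrices. With 42 kallisto UMIs after in situ polyadenylation, Megf10 was itself too sparse to enter the gene set behind the kallisto median. Over the 8016 protein-coding genes tested in kallisto, the median relative log2 ratio was -0.21, which lies inside the kallisto interval of Megf10. In kallisto Megf10 was thus not below the median of all genes tested by more than counting error.

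**Figure D2:**
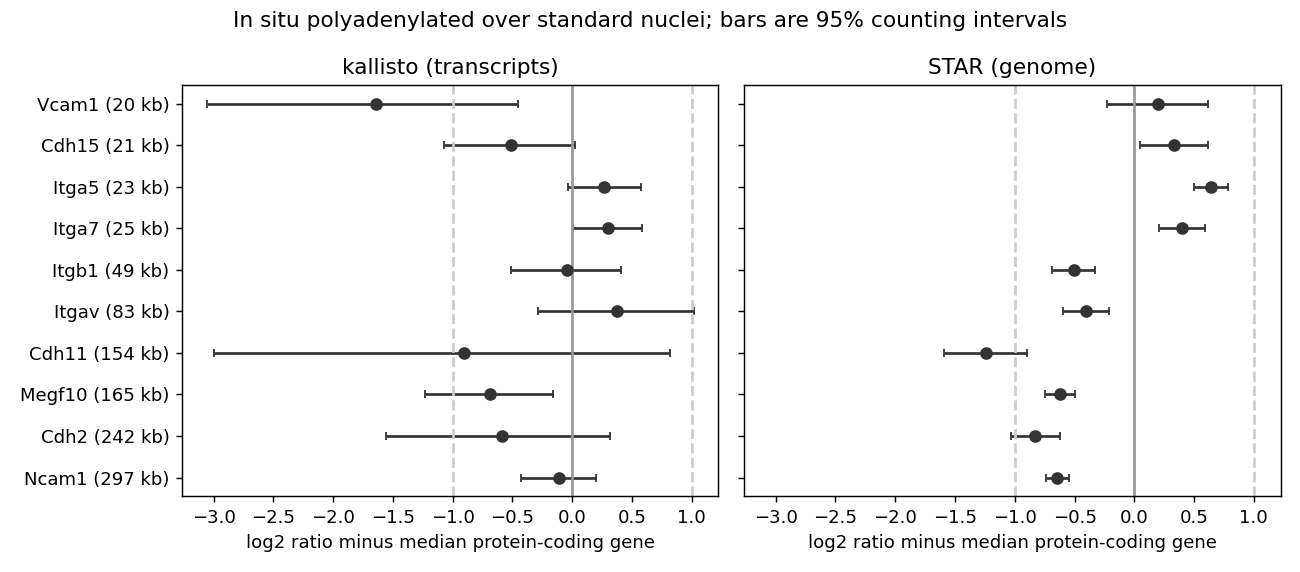
Log2 ratio of in situ polyadenylated over standard nuclei minus that of the median protein-coding gene, for kallisto (left) and STAR (right), with genes ordered by gene body length and bars showing 95% counting intervals. Dashed lines mark 2-fold. In STAR the 4 shortest genes lie between 0.20 and 0.64 and the 6 longer ones between -1.24 and -0.40, and kallisto shows no such order.

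In the STAR matrix the receptors separated by gene length. Vcam1, Cdh15, Itga5 and Itga7, with bodies under 25 kb, had relative log2 ratios from 0.20 to 0.64, and the other 6 had values from -1.24 to -0.40. Summed over each set, the STAR relative log2 ratio was 0.50 (0.40 to 0.60) for the 4 short genes, from 1311 and 1899 UMIs. For the 6 longer genes it was -0.64 (-0.70 to -0.58), from 2857 and 9100 UMIs. The kallisto sums of the same sets were 0.10 (-0.09 to 0.29) and -0.18 (-0.39 to 0.02), both within counting error of the median gene. The limit of 25 kb was chosen after the values were seen.

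A trend of this direction ran through all protein-coding genes and was not particular to the receptors. Across 7752 genes of one pair of libraries, Spearman's rho between gene body length and the STAR ratio was -0.33, given as a description since genes are not independent replicates. The median relative log2 ratio went from 0.28 in genes under 10 kb and 0.16 in those from 10 to 25 kb to -0.23 from 100 to 200 kb and -0.22 beyond. In kallisto the rho was -0.0083 over 2117 genes. Against the median of their own length class, the STAR values of the 10 receptors were smaller in size, and the intervals of 8 left out 0. The share of all genes of the classes whose intervals left out 0 was not computed, so this count has no background. Cdh11 stood at -1.01 (-1.36 to -0.67), with 0.428% of the 935 genes of its class lower. Cdh2 stood at -0.60 (-0.81 to -0.40), Itgb1 at -0.48 (-0.66 to -0.30), Ncam1 at -0.42 (-0.52 to -0.32) and Megf10 at -0.39 (-0.51 to -0.27). Itga5 stood at 0.48 (0.34 to 0.63) above its class, with 86.3% of 1826 genes lower, and Itga7 at 0.24 (0.05 to 0.43). Cdh15 and Vcam1 lay within counting error of their class median.

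**Figure D3:**
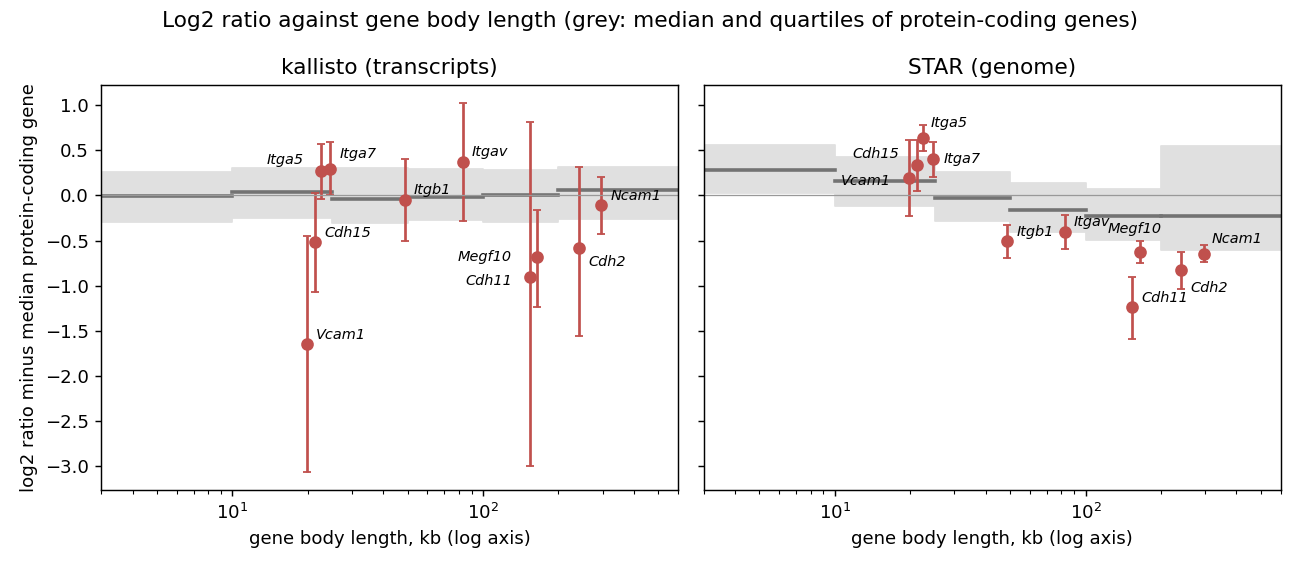
Relative log2 ratio of each receptor (red, with 95% counting intervals) against gene body length in kb (log axis), for kallisto (left) and STAR (right). Grey lines and bands are the median and quartiles of all protein-coding genes that reached 50 UMIs in both libraries, by length class. In STAR the class medians go from 0.28 to -0.22 with length and the receptors lie in the same direction, and Cdh11 lies farthest below its class.

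Both matrices come from the same libraries, 1 counted on annotated transcripts and 1 on the genome, and their ratio was taken for each gene. Over the 10 receptors the STAR count was 9.85 times the kallisto count in the standard nuclei and 6.09 times in the in situ polyadenylated nuclei. The median protein-coding gene had 4.64 and 3.85. In the standard nuclei the ratio was 34.6 for Cdh11, 25.5 for Cdh2, 20.9 for Megf10, 17.98 for Itgav, 15.7 for Ncam1 and 8.89 for Itgb1. It was 4.31 for Itga5, 3.83 for Vcam1, 2.88 for Cdh15 and 2.54 for Itga7. The 6 longer genes thus exceeded the median gene in the standard nuclei and the 4 short genes did not.

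After in situ polyadenylation the ratio was lower in each of the 6 longer genes, from 21.5 in Cdh11 and 17.1 in Megf10 to 5.05 in Itgb1. It was 2.13 in Itga7 and 4.36 in Itga5, close to the standard values, and higher in Cdh15 (4.05) and Vcam1 (10.7), where the kallisto counts behind it are 42 and 7 UMIs. The number of adenine runs moved with the same ratio over the coding genes. In the standard nuclei the median ratio was 3.39 in 1088 genes with no intronic run, 4.91 in 1871 genes with 1 to 5, 8.37 in 610 genes with 6 to 20 and 14.7 in 61 genes with more. After in situ polyadenylation these medians were 3.16, 3.91, 5.42 and 7.96. The ratio also went with gene length in the standard nuclei (Spearman's rho 0.65 over 3671 genes). Runs were not set against length, and their part in the receptor values was not tested.

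**Figure D4:**
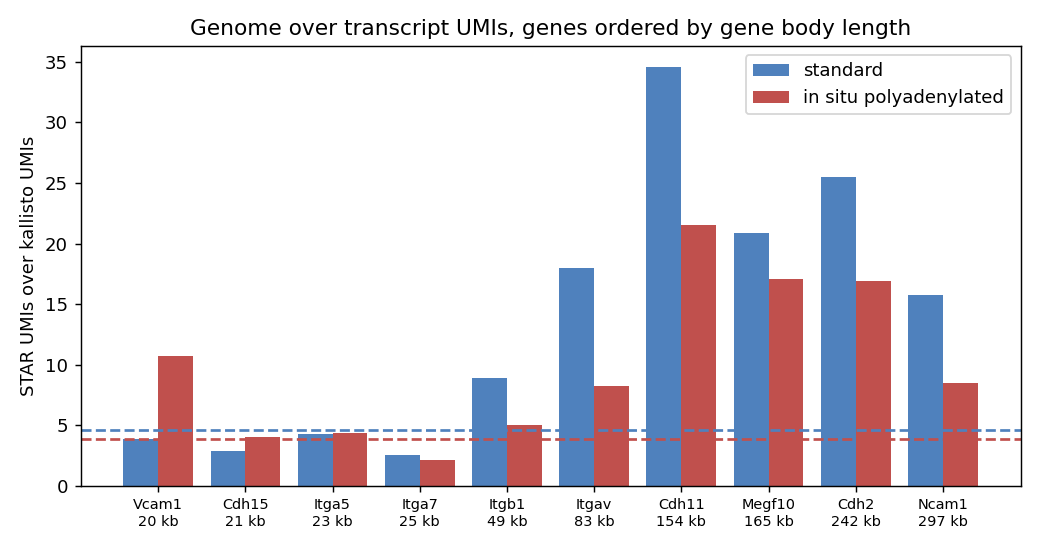
STAR UMIs divided by kallisto UMIs for each receptor in the standard (blue) and in situ polyadenylated (red) nuclei, ordered by gene body length, with dashed lines at the median of protein-coding genes (4.64 and 3.85). The bars of the 6 longer genes stand above both medians and are lower after in situ polyadenylation, from 34.6 to 21.5 in Cdh11.

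Levels between genes were compared per kb, with kallisto counts divided by exon length and STAR counts by gene body length. Per kb, Itga5 was the highest receptor in both libraries and both matrices. It stood at 15.1 and 28.7 kallisto CPM per exon kb in the in situ polyadenylated and standard nuclei. That was above Itga7, at 10.7 and 19.9, by more than counting error. Next came Ncam1 at 7.83 and 19.3, which did not differ from Itga7 beyond counting error in the standard nuclei. Itgb1 at 5.60 and 13.2 and Cdh15 at 4.10 and 13.4 did not differ from each other in either library. Megf10 followed at 2.13 and 7.81. Itgav, Cdh2 and Vcam1 lay together at 2.76 to 3.00 in the standard nuclei, with no neighbour differing beyond counting error, and between 0.394 and 1.56 after in situ polyadenylation. Cdh11 was last, at 0.174 and 0.747. The kallisto order of the highest genes depended on the division by exon length. Without it, Itga7 (175 UMIs) stood before Itga5 (159) after in situ polyadenylation. In the standard nuclei Ncam1 (235) and Itga7 (228) stood before Itga5 (211). Whether kallisto UMIs grow with exon length in these libraries was not tested.

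Per kb of gene body the STAR order was Itga5 (6.47), Itga7 (3.78), Itgb1 (3.19), Megf10 (2.20), Cdh15 (2.07), Ncam1 (1.99), Itgav (1.63), Vcam1 (1.09), Cdh2 (0.610) and Cdh11 (0.432) CPM per kb in the standard nuclei. Cdh15 did not differ beyond counting error from either of its neighbours, Megf10 and Ncam1. After in situ polyadenylation Itga5 (2.66), Itga7 (1.32) and Cdh15 (0.690) led, and Cdh2 (0.0907) and Cdh11 (0.0484) were last. Itga5 was first and Cdh11 last per length in both libraries and both matrices, whereas the place of Cdh2 depended on the matrix.

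In kallisto few nuclei showed a given receptor. Each nucleus was thinned to 750 kallisto UMIs, which left out 0 in situ polyadenylated and 3 standard nuclei. A UMI of any of the 10 genes was then found in 22.9% (20.7 to 25.3) of in situ polyadenylated and 44.6% (41.6 to 47.5) of standard nuclei, and without thinning in 36.8% and 56.2%. For single genes the thinned shares ran from 0.804% for Cdh11 to 11.25% for Itga5 and Itga7 in the standard nuclei. After in situ polyadenylation they ran from 0.0749% for Cdh11 and Vcam1 to 7.12% for Itga7. In the STAR matrix thinned to 1500 UMIs, any receptor was found in 41.9% (39.2 to 44.6) and 91.2% (89.4 to 92.8) of nuclei, and without thinning in 89.5% and 99.4%, at median depths of 6787.5 and 4478 UMIs.

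Ncam1 was the receptor most often seen in that matrix, in 14.8% (13.0 to 16.9) of thinned in situ polyadenylated and 56.5% (53.6 to 59.5) of thinned standard nuclei. Megf10 followed with 8.73% and 38.7%. Without thinning, Ncam1 was seen in 49.2% and 89.7% and Megf10 in 36.5% and 75.1% of nuclei, and in the standard nuclei Itgb1 reached 50.4% and Itga5 50.2%, down to 10.7% for Vcam1. Ncam1 and Megf10 have gene bodies over 100 kb. No second cell type was in the libraries to give a background share, and shares at equal depth are lowered where other RNA fills the nucleus. In STAR the coding gene Peak1 alone held 30.4% of UMIs after in situ polyadenylation and 0.102% in the standard nuclei. Coding genes other than Peak1, Zfp791 and Lars2 held 27.6% and 74.6%. The shares of nuclei given here are not corrected for this. Correlations between receptors across thinned nuclei were weak, from -0.08 to 0.10 over 45 pairs in the standard nuclei and from -0.04 to 0.07 in the in situ polyadenylated nuclei. All nuclei of a library share 1 preparation, and counts this sparse give no finding on joint expression.

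**Figure D5:**
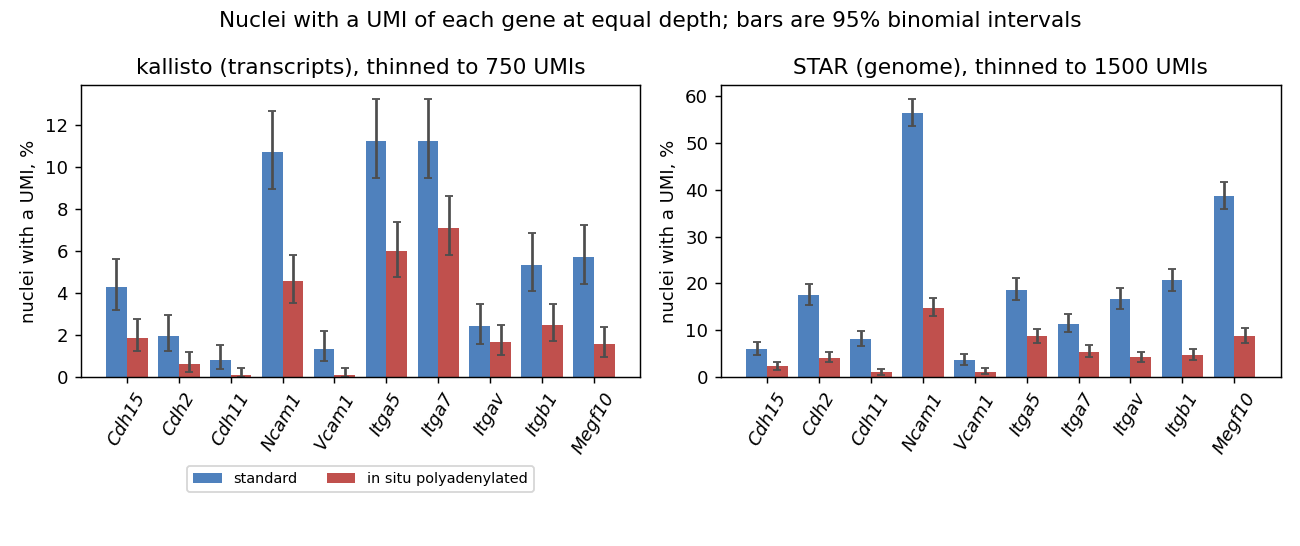
Percent of nuclei with at least 1 UMI of each receptor after thinning each nucleus to 750 kallisto UMIs (left) or 1500 STAR UMIs (right), in standard (blue) and in situ polyadenylated (red) nuclei, with exact 95% binomial intervals. Every red bar is lower than its blue neighbour, and Ncam1 reaches 56.5% and Megf10 38.7% of standard nuclei in STAR.

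Barcodes with 1 to 100 kallisto UMIs were taken to hold free RNA and debris. The receptors made up 424 CPM in 229964 such barcodes of the in situ polyadenylated library and 346 in its nuclei. The log2 ratio, low-UMI over nuclei, was 0.29 (0.14 to 0.44). In the standard library they made up 1017 CPM in 226358 such barcodes against 808 for nuclei, and the log2 ratio was 0.33 (0.23 to 0.44). Per protein-coding UMI the log2 ratios were 0.08 (-0.07 to 0.22) and 0.27 (0.17 to 0.38). The receptor share of UMIs was therefore not higher in nuclei than in low-UMI barcodes in either library. These values are shares and not amounts per barcode. They do not give the part of free RNA in the receptor counts of nuclei, which was not tested.

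Single receptors differed in this respect. In the in situ polyadenylated library Itga7 was lower in low-UMI barcodes than in nuclei, with 134 and 175 UMIs and a log2 ratio of -0.44 (-0.78 to -0.11). In the standard library Itga7 was at 0.25 (0.02 to 0.49). Itgb1 was higher in low-UMI barcodes of both libraries, at 0.68 (0.23 to 1.14) and 0.67 (0.35 to 1.00). Vcam1 had 26 UMIs in low-UMI barcodes and 7 in nuclei after in situ polyadenylation, a log2 ratio of 1.83 (0.59 to 3.28), and 53 and 35 in the standard library, at -0.19 (-0.84 to 0.47). Megf10 stood at 0.89 (0.33 to 1.46) and 0.16 (-0.18 to 0.51).

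The in situ polyadenylated nuclei were divided, after the values were seen, into 828 with 0 and 507 with at least 1 kallisto UMI of ENSMUSG00002075551, a gene annotated as a miRNA. In coding CPM the receptors stood at 1470 and 1378 in kallisto and at 1371 and 1219 in STAR. The standard nuclei had 1459 in kallisto and 2365 in STAR. Within each library, nuclei were also divided into 3 groups of like size by STAR depth, again after the values were seen. The receptors of the standard nuclei stood at 2145 coding CPM in the group of lowest and 2490 in that of highest depth, a log2 ratio of 0.21 (0.14 to 0.29). For in situ polyadenylated nuclei they stood at 1450 and 1256, a log2 ratio of -0.21 (-0.32 to -0.09). These values are of STAR alone, and the part of depth in the difference between the libraries was not tested.

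The binding partners of the receptors were listed as 8 groups with 105 genes. In kallisto 63 of them had at least 20 UMIs, with 1 past 2-fold upward, 3 downward and a median relative log2 ratio of -0.08. In STAR 96 had that many, with 19 upward, 1 downward and a median of 0.15. Against the backgrounds above, 19 of 96 compares with 13.1% of all genes upward in STAR, and 3 of 63 with 10.8% downward in kallisto.

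Inside the cell, catenins and adaptors link cadherins to actin. None of the 9 measured in kallisto was past 2-fold, and Afdn (afadin), the one with the most UMIs, had 250 and 422 with a relative log2 ratio of -0.08 (-0.31 to 0.15). In STAR 4 of 13 were upward: Arvcf at 2.33, and Ctnna2, Ctnna3 and Ctnnd2 at 1.92 to 1.97. The last 3 are catenin genes known from neurons, heart or testis, and had between 61 and 277 UMIs per library. Of 14 further cadherins with at least 20 STAR UMIs, 7 were upward and the group's median was 1.09, while none of 3 passed in kallisto. Cdh22 stood at 4.96 with 3503 and 231 STAR UMIs, Cdh1 (E-cadherin) at 3.13 with 64 and 15, and Cdh4, Cdh12, Cdh8 and Cdh20 between 1.32 and 2.50. Fat1, the listed cadherin with the most kallisto UMIs, had 61 and 85, at 0.20 (-0.30 to 0.69). The cadherins past 2-fold upward in STAR were thus nearly absent from the transcript counts. Values below the median gene were not particular to Cdh2 and Cdh11. Cdh13, with 1727 and 4858 STAR UMIs, stood at -0.46 (-0.54 to -0.38). Cdh10 at -0.63 and Fat4 at -0.39 were also below it, with intervals that reached 0. Cdh10 was nearly absent from the transcript counts too, with 0 and 1 UMIs.

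Among further integrin chains, Itga3 had 63 and 83 kallisto UMIs at 0.28 (-0.22 to 0.77), and Itgb5 had 39 and 75 at -0.27 (-0.86 to 0.31). No chain with at least 20 UMIs was past 2-fold in kallisto. In STAR 3 of 8 alpha chains were upward, led by Itga9 at 5.42 with 396 and 19 UMIs, and 1 of 7 beta chains, Itgb8, was downward at -1.32 with 28 and 143 UMIs. The ligands were led by fibronectin, Fn1, the partner of the Itga5 and Itgb1 pair, with 602 and 1099 kallisto UMIs at -0.19 (-0.34 to -0.05) and 0.16 (0.09 to 0.23) in STAR. Lama5, a laminin chain, stood at 0.70 in kallisto and was past 2-fold upward in STAR at 1.13 (0.96 to 1.30), with 565 and 529 UMIs.

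Focal adhesion linkers connect integrins to actin. Zyx (zyxin) had the most kallisto UMIs over both libraries, 411 and 610, at 0.11 (-0.08 to 0.29). Tns3 (tensin 3) was past 2-fold upward in kallisto at 1.23 (0.55 to 1.93) but at 0.00 in STAR, and Lims1 was downward in kallisto at -1.24 (-2.24 to -0.33) and at -0.84 (-0.95 to -0.72) in STAR. None of the 18 linkers was past 2-fold in STAR. Among further immunoglobulin-domain and fusion receptors, Alcam had 71 and 164 kallisto UMIs, at -0.53 (-0.95 to -0.12) and -0.85 (-0.97 to -0.73) in STAR, and Icam1, with 6 and 20 UMIs, was the 1 of 11 past 2-fold downward in kallisto. Mcam was the 1 of 14 upward in STAR at 2.25 with 123 and 53 UMIs. In the group of Megf relatives and Notch genes, Notch3 had 62 and 100 kallisto UMIs at -0.01 (-0.49 to 0.46), and Jag1, with 3 and 27, was the 1 of 5 past 2-fold downward. Megf6, Dll1 and Megf11 were 3 of 9 upward in STAR at 3.68, 2.67 and 2.20 with between 8 and 65 UMIs per library.

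For the 4 receptors with at least 50 UMIs in every library and matrix, the protein-coding gene with the most similar levels was found by the largest difference over the 4 log2 CPM values, among 2091 candidates. Tanc2 was nearest to Ncam1 (largest difference 0.19), Ascc2 to Itga5 (0.15), Pias4 to Itga7 (0.13) and Slc39a14 to Itgb1 (0.17). Tanc2 is, like Ncam1, a long gene (340 kb), and it had 119 and 237 kallisto UMIs and 1078 and 3481 STAR UMIs.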

How the data were processed

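Reads were trimmed by the authors with cutadapt 3.4. Estimated counts of UMIs for genes and barcodes are what the deposited kallisto tables give, made by the authors with kallisto 0.48.0 and bustools 0.41.0 with strand in use, and list every barcode. Entries were summed over nuclei and rounded. The deposited STAR matrices hold whole counts of UMIs, made by the authors with STAR 2.7.10a on GRCm39, for a subset of barcodes. The counting mode, strand setting and barcode choice were not given in the paper, labels or headers. Nuclei had over 750 kallisto UMIs (median 1088 in situ polyadenylated, 996 standard), and the study's 5% mitochondrial limit removed 0. Doublets were not called. Ratios carry exact conditional Poisson 95% intervals, shares exact binomial ones (scipy 1.17.1). No test was made, with 1 library per group. Gene bodies, exons and adenine runs came from GENCODE M39 and GRCm39, of which 54749 of 55414 genes matched by identifier. The code was tested on simulated data. Members and lists were chosen with earlier results of these data known. Named genes were all 10 receptors, from each partner list the gene with the most kallisto UMIs and those past 2-fold with at least 50 UMIs, and the nearest gene of each receptor with at least 50 UMIs in each library and matrix. Other genes were named after their values were seen. Alternatives were other choices of nuclei, gene minima, centring, summaries and barcode ranges. Sequence from chromosome 18 and of some other runs is not reported here.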

Additional observations from a re-analysis of the deposited data

How the results depend on the processing

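No paired analysis was possible because only a single library stands on each side. Of 38 alternative values of the summary results, 27 stayed within counting error or within 1.5 times of a count or 1.1 times of a matrix ratio, and 11 moved without changing sign. With nuclei over 1500 kallisto UMIs the relative log2 ratio of the receptor sum was -0.21 in kallisto and -0.46 in STAR. As the mean share per nucleus the kallisto value turned from -0.03 to 0.05, within counting error. The STAR value was -0.31 as the mean share per nucleus, -0.24 without Ncam1, -0.46 as the median of the receptors and, chosen after seeing the data, -0.86 per protein-coding UMI. The last of these is not relative to the median coding gene. With at least 50 UMIs per gene 0 receptors were past 2-fold in kallisto. By CPM with no centring 6 were in kallisto and 10 in STAR, all downward. On that scale the median coding gene was itself past 2-fold downward, at log2 -1.19 in kallisto and -1.92 in STAR. The share over all coding genes was not computed for these counts. In the in situ polyadenylated library the receptor sum of low-UMI barcodes stood at 0.69 (log2) relative to nuclei for barcodes of 1 to 10 UMIs and, chosen after seeing the data, 0.0758 per protein-coding UMI. Of 80 values of single receptors under other choices of nuclei or with the silent-gene level subtracted, all chosen after seeing the data, 1 moved, Itgav in STAR at -0.69 with over 1500 UMIs per nucleus. Directions in kallisto turned within counting error for Itgav (-0.27) and Cdh11 (0.17) with over 1500 UMIs and for Itgb1 (0.08) without the 5% of nuclei with the most UMIs. Under about 50 kallisto UMIs, as for Cdh11, Vcam1 and Cdh2, depth limits what can be seen.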

Other observations

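Nuclei with a UMI of any of 8 genes of differentiating myocytes (Myog, Mymk, Mymx, Ckm, Acta1, Myh3, Tnnt3 and Mylpf), after thinning to 1500 STAR UMIs, held more Ncam1. In the standard library 54 nuclei had such a UMI and 1069 did not. Ncam1 stood at 1524 CPM over protein-coding UMIs in the former and 764 in the latter, from 90 and 903 UMIs, a log2 ratio of 1.00 (0.67 to 1.31). The intervals of the other 9 receptors included 0 there, with Megf10 at -0.01 (-0.61 to 0.54) and Itgb1 at 0.71 (-0.05 to 1.38). In the in situ polyadenylated library 39 nuclei had a marker UMI and 1289 did not, and Ncam1 stood at 926 and 372 CPM, from 18 and 210 UMIs, a log2 ratio of 1.31 (0.53 to 2.01). Megf10 stood at 1.55 (0.56 to 2.41) from 12 and 119 UMIs and Cdh2 at 2.44 (1.23 to 3.49) from 9 and 48. Cdh15, Cdh11 and Vcam1 had 0 UMIs in the 39 nuclei. These nuclei were divided after the values were seen. Nuclei of a library are not replicates, the intervals cover counting error only, and no difference between the libraries was tested.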
